A study of Mus musculus with 16 samples.

Results

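The caveolin and cavin genes *Cav1*, *Cav2*, *Cavin1*, *Cavin2* and *Cavin3* were taken by gene symbol from the deposited count table, which held all 5 among its 14474 genes. Caveolae are small flask-shaped pits of the plasma membrane, abundant in cells under mechanical load, which flatten under tension and carry signalling and lipid-handling proteins. Caveolins are hairpin membrane proteins that shape the pit, and cavins are soluble proteins that coat it from the cytoplasm. Cavin1 is needed for the coat and the other cavins join it through coiled-coil contacts. In the study, *Cavin3* was picked from these same libraries for its response to α3β1 and LN332, so its values are given as a description with no test. The other 4 genes entered by family name and were tested.

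The MKα3− line is an immortalized mouse keratinocyte line without the integrin α3 subunit, and the MKα3+ line is the null line to which human α3 was returned. Integrin α3β1 is a laminin receptor of basal keratinocytes, and LN332 (laminin-332) is its main ligand in the epidermal basement membrane. Cells on collagen-coated dishes in low-calcium medium, kept at 33 °C and 8% CO2, received LN332 at 0.02 mg/mL or an equal volume of its PBS-glycine-azide vehicle for 16 to 24 h. RNA was sequenced from MKα3− and MKα3+ cells under each treatment, with 4 replicates in each of the 4 groups. Each genotype was a single line, so a difference between the genotypes and any other difference between the lines cannot be told apart. The study's methods call in vitro data points experimental replicates, but neither they nor the labels say that the replicates were separate cultures, so p-values measure only the spread between these libraries.

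The 16 libraries held 21735708 to 29338370 counts each. The mouse gene *Itga3*, which encodes the missing subunit, had 4530 to 8830 counts in every library and did not tell the lines apart (log2 fold change of MKα3+ over MKα3− cells in vehicle 0.09, SE 0.15, limma-voom adjusted p = 0.694). All 8 keratinocyte markers were measured, at a summed level of 8737 to 19400 CPM (counts relative to the TMM-scaled library total). Caveolae are also abundant in endothelial cells, fibroblasts, adipocytes and muscle. The endothelial markers measured (5 of 6) summed to 3.61 to 8.27 CPM, the fibroblast markers (5 of 8) to 11.6 to 40.7 CPM and the muscle markers (2 of 5) to 2.75 to 6.98 CPM, and of the adipocyte markers 0 of 4 were in the table. The immune markers measured (3 of 4) had a median sum of 44.9 CPM in vehicle-treated MKα3− and 172 CPM in vehicle-treated MKα3+ libraries. Those ranges did not overlap, as was so for the groups of 32.9% of all genes in this comparison. With LN332 the medians were 42.1 and 79.1 CPM and the ranges overlapped. Over all libraries *Lyz2* ran from 3.61 to 237 CPM, *Cd68* from 11.7 to 41.2 CPM and *Ptprc* from 0.425 to 3.81 CPM, so the sum was mainly *Lyz2* and *Cd68*. Alveolar genes of the lung were present in every library, with *Ager* at 17.6 to 95.1 CPM and *Sftpc* at 34.4 to 255 CPM. The part of immune and alveolar transcripts in the results that follow was not tested.

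*Cavin3* was the caveolar gene that separated the genotypes, at 1.86 ± 0.582 CPM in vehicle-treated MKα3− cells and 94.6 ± 14.3 CPM in vehicle-treated MKα3+ cells (SD, n = 4), a 50.7-fold ratio of means. With LN332 its level was 2.69 ± 1.30 CPM without α3 and 169 ± 23.4 CPM with it (SD, n = 4). *Cav1*, *Cav2*, *Cavin1* and *Cavin2* stayed within overlapping ranges in every comparison of groups, as did most genes. Between the lines, the groups of 32.9% of all genes did not overlap in vehicle and those of 26.5% in LN332. For LN332 against vehicle the shares were 9.66% in MKα3+ and 4.95% in MKα3− cells. A gene was called at an adjusted p under 0.05 with an absolute log2 fold change over 0.5 in limma-voom. Of these 4 genes, 0 were called between MKα3+ and MKα3− cells in vehicle, where 18.5% of all 14474 genes were called, and 0 were called in LN332, where 20.6% of all genes were called. The same 4 gave 0 calls for LN332 against vehicle in MKα3+ cells (0.187% of all genes called, or 1.51% when the fit held the replicate as a block) and 0 in MKα3− cells (0.304% of all genes called, or 1.79% under the block). These background shares are unstable, since leaving out each library in turn moved the number of genes called from 27 to between 0 and 47 in MKα3+ and from 44 to between 1 and 150 in MKα3− cells. The difference between the LN332 responses of the lines gave 0 calls among the 4, and 0% of all genes. At an unadjusted p under 0.05 the count was 1 for LN332 in MKα3− cells (*Cav1*), where 2023 of all 14474 genes were under it. In each of the other comparisons the count was 0. The counts of all genes there were 5648 and 6145 between the lines in vehicle and in LN332. They were 1388 for LN332 in MKα3+ cells and 164 for the difference of the responses. For the 4 genes, edgeR and DESeq2 also called 0.

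**Figure D1:**
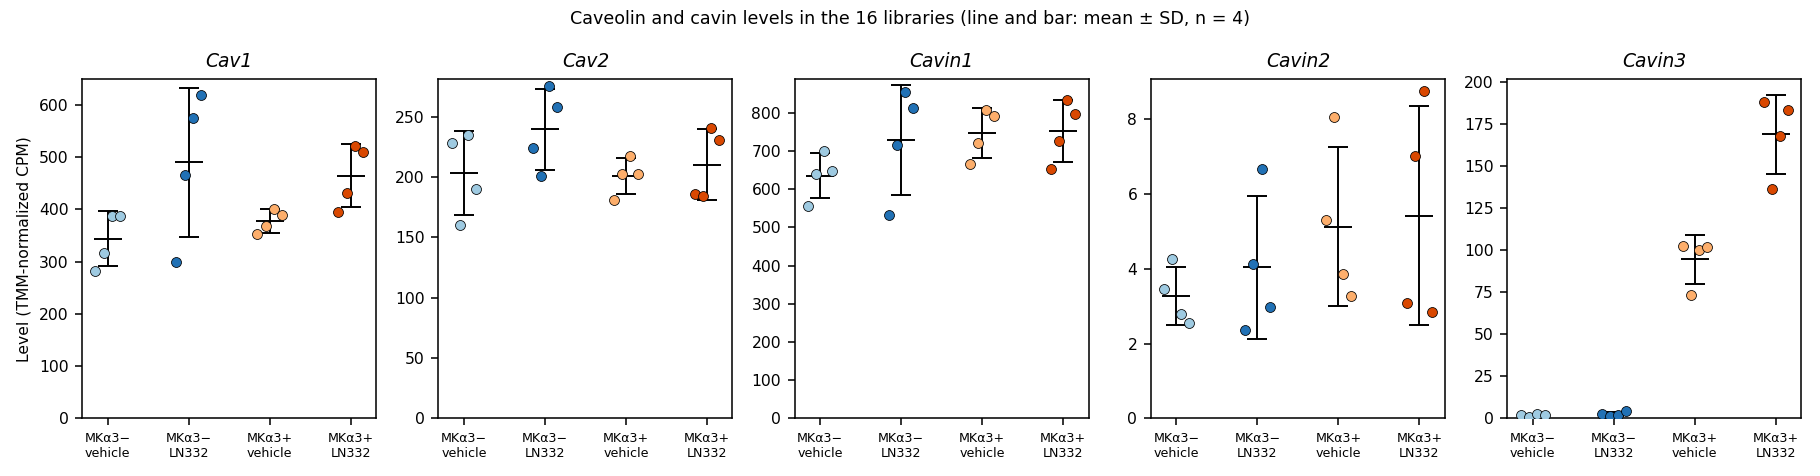
Level of each gene in TMM-normalized CPM (vertical axes, from 0, with a scale of their own in each panel) in the 16 libraries, by line and treatment; points are replicates 1 to 4 from left to right, and the line and bar are the mean ± SD (n = 4). *Cavin3* lies at 4.50 CPM or below in all MKα3− libraries and at 73.2 CPM or above in all MKα3+ libraries. The groups of the other 4 genes overlap, as do those of most genes.

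*Cav1* (Entrez 12389) lies on chromosome 6 at chr6:17306335-17341328 on the plus strand of GRCm38 (mm10). Its protein is the main structural caveolin of epithelial cells. In vehicle its level was 282, 318, 388 and 388 CPM in the MKα3− libraries and 352, 368, 402 and 390.1 CPM in the MKα3+ libraries. Of the 4 MKα3+ libraries, 2 lay above every MKα3− library and 2 lay inside the MKα3− range, and the log2 fold change was 0.15 (SE 0.18, 95% interval −0.22 to 0.52, limma-voom adjusted p = 0.574). With LN332 it was 299.9, 466, 576 and 619 CPM in MKα3− cells and 396, 432, 521 and 509.8 CPM in MKα3+ cells. The MKα3− libraries spread on both sides of the MKα3+ ones, with a log2 fold change of −0.04 between the lines (SE 0.18, limma-voom adjusted p = 0.894).

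The largest LN332 difference among the 4 tested genes was that of *Cav1* in MKα3− cells, at a log2 fold change of 0.47 (SE 0.18, 95% interval 0.10 to 0.85, limma-voom unadjusted p = 0.0162 and adjusted p = 0.248). There, 3 of 4 LN332-treated libraries lay above every vehicle-treated library, and replicate 1, at 299.9 CPM, lay inside the vehicle range. Leaving out each of the 16 libraries in turn moved the log2 fold change between 0.34 and 0.69. It was highest, and the gene was called, only without that library (limma-voom adjusted p = 0.0233). Without LN332-treated replicate 4 it was 0.34 (limma-voom adjusted p = 0.540). With the replicate as a block it was 0.47 (SE 0.11, limma-voom adjusted p = 0.0269), under the minimum fold, so *Cav1* was not called. In MKα3+ cells the LN332 log2 fold change of *Cav1* was 0.29 (SE 0.18, 95% interval −0.09 to 0.66, limma-voom adjusted p = 0.685), and again 3 of 4 LN332-treated libraries lay above the vehicle range. The response in MKα3+ minus that in MKα3− cells was −0.19 (SE 0.25, 95% interval −0.72 to 0.34), so a difference between the lines was not detectable for *Cav1*.

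*Cav2* (Entrez 12390, chr6:17281185-17289130, plus strand of GRCm38) encodes a caveolin that forms hetero-oligomers with caveolin-1 and depends on it to leave the Golgi. It starts 25.2 kb before *Cav1* on the same strand. Its vehicle levels were 228, 160.4, 235 and 189.8 CPM in MKα3− and 181, 202, 217 and 203 CPM in MKα3+ libraries. The MKα3+ libraries lay wholly within the MKα3− range, and the log2 fold change was −0.00 (SE 0.13, 95% interval −0.28 to 0.28). With LN332 the levels were 224, 201, 275 and 258 CPM in MKα3− and 186, 184, 241 and 231 CPM in MKα3+ libraries, again overlapping. LN332 gave *Cav2* a log2 fold change of 0.24 in MKα3− cells (SE 0.13, 95% interval −0.04 to 0.52) and 0.06 in MKα3+ cells (SE 0.13, 95% interval −0.22 to 0.34).

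*Cavin1* (Entrez 19285, chr11:100956736-100970617, minus strand of GRCm38), the core coat gene, was the highest of the 5 in every library, also per kilobase of exon. Its vehicle levels were 555, 639, 699 and 648 CPM in MKα3− and 666, 720.5, 806 and 792 CPM in MKα3+ libraries. In vehicle 3 of 4 MKα3+ libraries lay above every MKα3− library and replicate 1 lay inside the MKα3− range. The log2 fold change was 0.23 (SE 0.14, 95% interval −0.05 to 0.52, limma-voom adjusted p = 0.217). With the replicate as a block it was 0.23 (SE 0.08, limma-voom adjusted p = 0.0244), under the minimum fold, so *Cavin1* was not called. With LN332 the levels were 531, 716, 853 and 812 CPM in MKα3− and 652, 725, 834 and 798 CPM in MKα3+ libraries. The LN332 log2 fold change of *Cavin1* was 0.01 in MKα3+ cells (SE 0.14, 95% interval −0.28 to 0.30) and 0.18 in MKα3− cells (SE 0.13, 95% interval −0.10 to 0.46). These intervals leave out a change of 0.5 on the log2 scale in either direction. Replicate 1 had the lowest *Cav1* and the lowest *Cavin1* level in all 4 groups.

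*Cavin2* (Entrez 20324, chr1:51289126-51302960, plus strand of GRCm38) encodes a phosphatidylserine-binding cavin and protein kinase C substrate that bends caveolar membrane. It was low throughout. In vehicle its level was 3.47, 4.27, 2.80 and 2.56 CPM in MKα3− and 5.31, 8.06, 3.88 and 3.27 CPM in MKα3+ libraries. The spread within a group was wide and the log2 fold change of 0.57 had an interval from −0.25 to 1.40 (SE 0.39, limma-voom adjusted p = 0.297). With LN332 the levels were 2.37, 4.13, 6.68 and 2.98 CPM in MKα3− and 3.09, 7.02, 8.76 and 2.85 CPM in MKα3+ libraries. The LN332 log2 fold changes were 0.00 in MKα3+ cells (SE 0.37) and 0.25 in MKα3− cells (SE 0.41), so a change of moderate size in *Cavin2* was not detectable here.

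The library-to-library pattern of *Cavin2* was close to that of some alveolar genes. Over the 16 libraries, with each gene centred on its own mean log2 CPM, the 3 genes nearest to *Cavin2* were *Clic5*, *Scnn1g* and *Cldn18*, at root mean square differences of 0.23, 0.24 and 0.24, against a median of 0.65 over all genes. *Clic5* encodes a chloride intracellular channel protein, *Scnn1g* a subunit of the epithelial sodium channel and *Cldn18* a claudin of lung and stomach, and these 3 genes are known in the flat type I cells of the alveolus. A list of 8 type I genes, which holds those 3 and was drawn up after these values were seen, was measured in full and summed to 42.7 to 194 CPM. Of its members, *Hopx* and *Pdpn* are also known in epidermis. In each of the 4 groups the library with the highest *Cavin2* was the one with the highest type I sum, and the library with the lowest *Cavin2* was the one with the lowest sum. *Cavin2* itself ranged 3.70-fold over the 16 libraries, the type I sum 4.55-fold, and their ratio 1.74-fold. Because the list holds the 3 genes picked as nearest to *Cavin2* in these libraries, this agreement is partly built in. It is no separate evidence of where the *Cavin2* counts came from. A list of 5 alveolar type II genes, also drawn up after values were seen, did not follow *Cavin2*. Its highest sum, 366 CPM, was in LN332-treated MKα3− replicate 4, where *Cavin2* was 2.98 CPM. In none of the groups did the library with the highest *Cavin2* have the highest type II sum. Nor did the library with the lowest *Cavin2* have the lowest type II sum in any group. In vehicle-treated MKα3− cells, replicate 4 had the lowest *Cavin2* and the highest type II sum. Whether the *Cavin2* counts came from the keratinocytes was not tested.

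**Figure D2:**
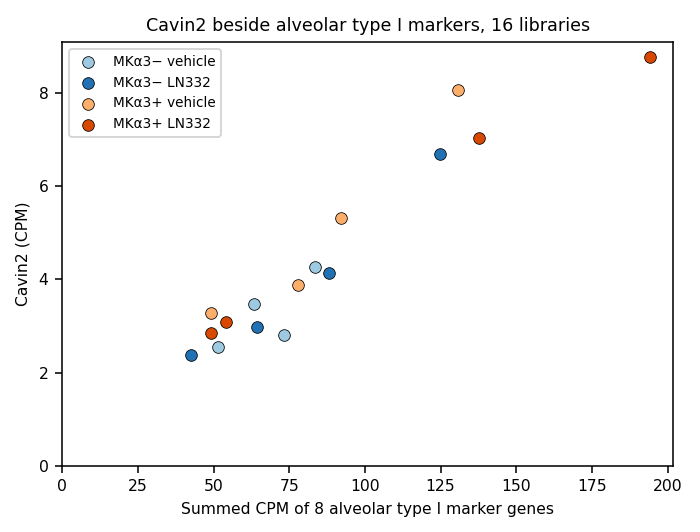
*Cavin2* in CPM (vertical axis) against the summed CPM of 8 alveolar type I marker genes (horizontal axis), both from 0; each of the 16 points is a library, coloured by line and treatment. The 4 libraries above 6 CPM of *Cavin2* are those with a type I sum of 125 CPM or more, and the other 12 lie at 5.31 CPM or below. The 8 genes include *Clic5*, *Scnn1g* and *Cldn18*, picked as nearest to *Cavin2* in these libraries, so the agreement is partly built in.

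*Cavin3* (Entrez 109042) lies on chromosome 7 at chr7:105480616-105482197 on the minus strand of GRCm38. Its protein is a cavin that binds protein kinase C delta and is known to couple caveolae to ERK and Akt signalling. Its gene model in GENCODE M21 has 2 exons with 1662 exon bases, of which 780 are coding without the stop codon. That model is longer than the RefSeq span given above. The authors counted reads on a built-in Entrez annotation, whose model of the gene may differ from both. An annotated transcript on the opposite strand, *Gm45667*, overlaps 374 of these exon bases (22.5%), 233 of them coding. Whether counting used strand is not given in the sources used here, so reads of the 2 genes in that stretch cannot be told apart, and *Gm45667* itself was not among the counted genes. The coding bases in question, at chr7:105481927-105482159 on the minus strand of GRCm38, are shown because they are the part of *Cavin3* whose counts are uncertain, with capitals for the start codon.
*Cavin3* coding start: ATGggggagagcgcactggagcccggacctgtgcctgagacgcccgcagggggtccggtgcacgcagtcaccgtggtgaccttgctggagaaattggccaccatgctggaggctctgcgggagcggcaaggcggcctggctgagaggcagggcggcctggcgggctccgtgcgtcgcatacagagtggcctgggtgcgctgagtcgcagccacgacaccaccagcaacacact

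In vehicle, *Cavin3* had 50, 32, 66 and 66 counts (1.76, 1.08, 2.34 and 2.28 CPM) in the MKα3− libraries and 2825, 1825, 2556 and 2844 counts (103, 73.2, 100.1 and 102 CPM) in the MKα3+ libraries. The groups were separated by a wide gap. The log2 fold change was 5.70 (SE 0.30), which ranked 10 from the highest of 14474 genes, and the groups of 32.9% of all genes did not overlap in this comparison. With LN332, *Cavin3* had 71, 49, 49 and 92 counts (2.76, 1.73, 1.76 and 4.50 CPM) in MKα3− and 4689, 3361, 4325 and 4893 counts (188, 136, 168 and 183 CPM) in MKα3+ libraries. The log2 fold change between the lines was then 6.12 (SE 0.28), rank 7 of 14474, where the groups of 26.5% of all genes did not overlap.

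LN332 against vehicle in MKα3+ cells gave *Cavin3* a log2 fold change of 0.84 (SE 0.14), a 1.79-fold ratio of means, and rank 120 of 14474. The lowest LN332-treated library (136 CPM) was above the highest vehicle-treated one (103 CPM), as was so, in either direction, for 9.66% of all genes. In MKα3− cells the LN332 log2 fold change was 0.42 (SE 0.38), at a level of under 5 CPM, and the groups overlapped, whereas those of 4.95% of all genes did not. The response in MKα3+ minus that in MKα3− cells was 0.42 (SE 0.40). Most of that error came from the MKα3− libraries, where *Cavin3* had 92 counts or fewer. Replicate 2 had the lowest *Cavin3* level in all 4 groups. Leaving out each library in turn moved the *Cavin3* log2 fold change between 5.46 and 5.83 for the lines in vehicle and between 0.72 and 0.94 for LN332 in MKα3+ cells.

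**Figure D3:**
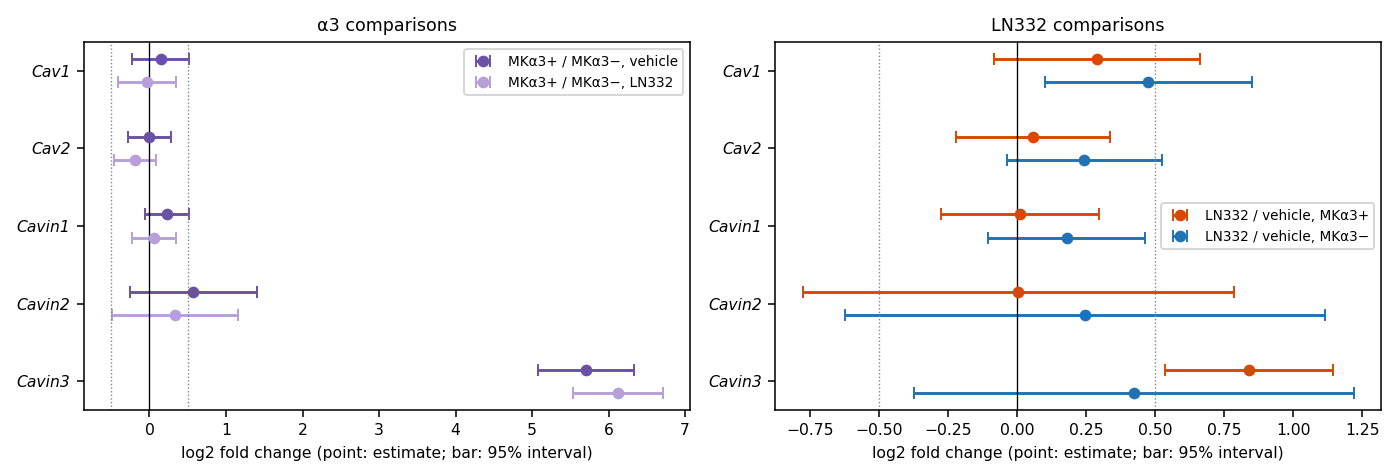
Log2 fold changes of the 5 genes (points) with 95% intervals from limma-voom (bars), for MKα3+ against MKα3− cells (left) and for LN332 against vehicle (right); dotted lines mark 0.5 in each direction and the horizontal scales of the panels differ. In the left panel *Cavin3* lies at 5.70 and 6.12 and the other genes lie between −0.19 and 0.57; in the right panel *Cavin3* in MKα3+ cells lies at 0.84 and *Cav1* in MKα3− cells at 0.47.

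Levels of different genes were compared as CPM per kilobase of exon, with exon lengths from GENCODE M21 and not from the annotation used for counting. On that scale *Cavin1* stood above 98.8% to 99.0% of the 13194 genes with a known exon length in the 4 groups, *Cav1* above 97.1% to 98.0% and *Cav2* above 93.8% to 94.5%. *Cavin2* stood above only 21.3% to 26.2%. *Cavin3* stood above 21.8% and 26.1% of genes in vehicle- and LN332-treated MKα3− cells, close to *Cavin2*, and above 93.5% and 96.9% in the MKα3+ groups, close to *Cav2*.

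The make-up of the cavin transcripts differed with the genotype. Of the summed CPM per kilobase of *Cavin1*, *Cavin2* and *Cavin3*, *Cavin3* held 0.625% ± 0.178 in vehicle-treated and 0.808% ± 0.384 in LN332-treated MKα3− cells (SD, n = 4). In MKα3+ cells it held 21.3% ± 2.88 in vehicle and 32.5% ± 4.25 with LN332 (SD, n = 4). *Cavin1* held 98.8% in vehicle-treated MKα3− and 66.9% in LN332-treated MKα3+ cells, on the average of 4 libraries. Its own level was called in none of the comparisons made, and these groups were not compared directly. These shares follow from the *Cavin3* values and are no further evidence of them.

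Within a library, ratios of *Cavin1* and *Cav2* to *Cav1* do not depend on the scaling of libraries. The *Cavin1* to *Cav1* ratio (CPM per kilobase) was 1.82 to 1.95 in vehicle-treated and 1.502 to 1.61 in LN332-treated MKα3+ libraries, which did not overlap. In MKα3− cells it was 1.61 to 1.93 in vehicle and 1.26 to 1.70 with LN332. The log2 difference of LN332 minus vehicle was −0.28 (SE 0.03) in MKα3+ cells (exact two-sided permutation test over 70 splits, p = 0.0286, the smallest it can give) and −0.29 (SE 0.11) in MKα3− cells (exact permutation p = 0.0571). These p-values are unadjusted, and the ratio was chosen after the levels were seen. After Benjamini-Hochberg adjustment of the exact permutation tests over the 8 ratio comparisons they were 0.114 and 0.152, so neither passed. How often the ratios of other gene pairs separate in this way was not tested. As a description, *Cav1* stood higher against *Cavin1* in every LN332-treated than in any vehicle-treated MKα3+ library.

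The *Cav2* to *Cav1* ratio behaved alike in MKα3+ cells, at 0.530 to 0.567 in vehicle and 0.440 to 0.484 with LN332 (log2 difference −0.23, SE 0.04, exact permutation p = 0.0286). In MKα3− cells the ranges, 0.506 to 0.834 and 0.430 to 0.770, overlapped (log2 difference −0.23, SE 0.25, exact permutation p = 0.400). The ratios were chosen after the levels were seen. Both have *Cav1* as denominator, so the second is not separate from the first. After adjustment over the 8 ratio comparisons, including those between the lines, the lowest value was 0.114 by the exact permutation tests, so none passed. These tests leave out the pairing by replicate number. Within same-numbered pairs both ratios were lower with LN332 in 4 of 4 pairs of each line, for which an exact sign-flip permutation test cannot give a p below 0.125.

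**Figure D4:**
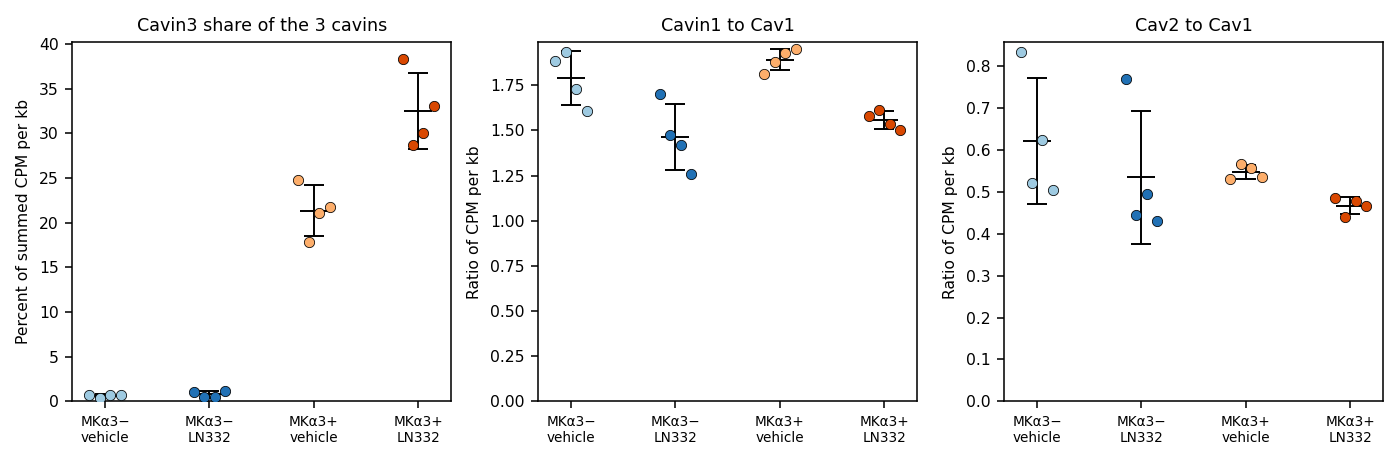
Share of *Cavin3* in the summed CPM per kilobase of the 3 cavins (left, percent), ratio of *Cavin1* to *Cav1* (middle) and of *Cav2* to *Cav1* (right), all on axes from 0; points are the libraries of each line and treatment and the line and bar are the mean ± SD (n = 4). The *Cavin3* share is 1.18% or less in MKα3− and 17.8% or more in MKα3+ libraries, and in MKα3+ cells both ratios are lower in all LN332-treated than in all vehicle-treated libraries.

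The genes most like each other member over the 16 libraries were found in the same way as for *Cavin2*. For *Cavin3* they were *Sox11*, a SoxC transcription factor, *Krt19*, a simple-epithelial keratin, and *Rin3*, a Rab5 exchange factor of endocytosis, at root mean square differences of 0.31, 0.47 and 0.51 in log2 CPM against a median of 2.97 over all genes. *Sox11* shared the LN332 difference in MKα3+ cells, at 39.1 ± 3.03 CPM in vehicle and 65.4 ± 7.40 CPM with LN332 (SD, n = 4). The study picked *Sox11* together with *Cavin3* from these same libraries, for a response to both α3β1 and LN332. Their likeness is therefore partly built in and is no separate evidence. *Rin3* stood at 48.0 ± 2.97 CPM in vehicle-treated and 49.6 ± 2.69 CPM in LN332-treated MKα3+ cells (SD, n = 4). For *Cav1* the nearest were *Serpinb1b*, *Map6* and *Smurf1* (0.11 to 0.14, median over all genes 0.42). For *Cav2* they were *Ezr*, which encodes the membrane-actin linker ezrin, *Eed*, a Polycomb subunit, and *Cap1*, an actin-turnover protein (0.09 to 0.13, median 0.34). For *Cavin1*, *Myef2l*, *Pak2* and *Cep170b* lay at 0.09 (median 0.34). *Cav1*, *Cav2* and *Cavin1* were not among each other's 3 nearest genes.

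Along chromosome 7 the height of the *Cavin3* difference was not shared by its neighbours. Of 23 other measured genes starting within 1000 kb, 6 were called higher and 0 lower in MKα3+ cells given vehicle (10.9% and 7.56% of all genes), and their values ran from −1.19 to 1.45 on the log2 scale (median 0.15). In LN332, 5 were called higher and 0 lower (11.7% and 8.92% of all genes). For LN332 against vehicle 0 of the 23 were called in either line. Of the 3 nearest measured genes on each side (*Gm4887*, *Fhip1b* and *Gm4972* before, *Smpd1*, *Apbb1* and *Hpx* after), *Apbb1* was called in vehicle, at 0.70 (limma-voom adjusted p = 0.0305). The other 5 called genes, *Gvin1*, *Gvin2* and the pseudogenes *Gvin-ps1*, *Gvin-ps3* and *Gvin-ps5* of a family of very large interferon-inducible GTPases, started 343 to 842 kb away and were named after their values were seen. Copies of that family are near-identical, so their counts are uncertain. Next to *Cav1* and *Cav2*, *Met*, the hepatocyte growth factor receptor, was called with LN332 present, at 0.55 between the lines (limma-voom adjusted p = 0.0104). Of the 3 nearest genes on each side of *Cavin1*, *Stat5a* was called lower in MKα3+ cells (−0.74 in vehicle). Of those of *Cavin2*, *Slc40a1*, the iron exporter ferroportin, was called higher (2.31 in vehicle), but it starts 5381 kb away.

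**Figure D5:**
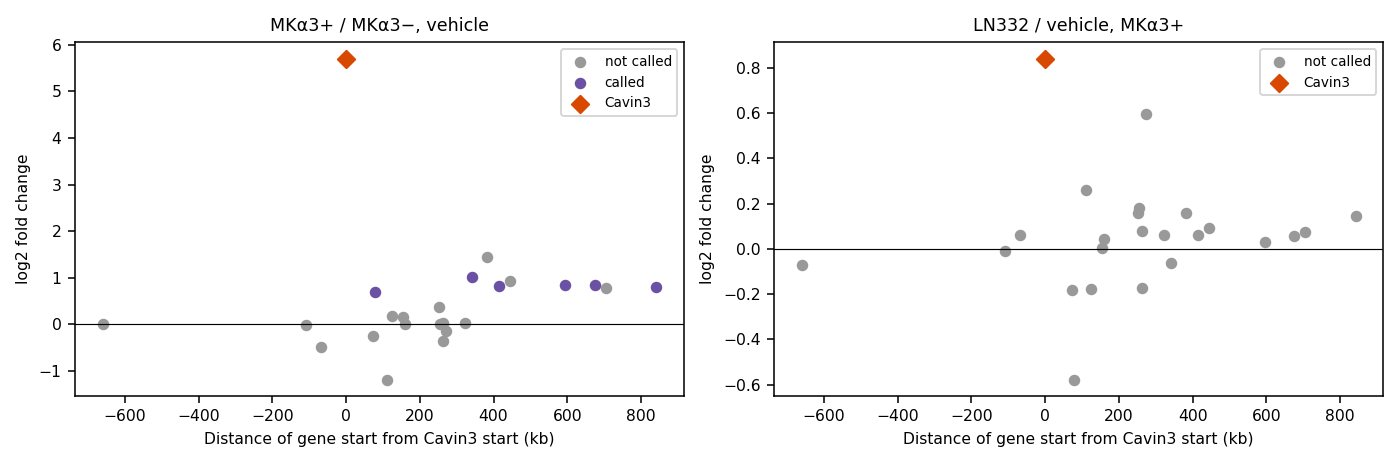
Log2 fold change (vertical axes, of different scale) of *Cavin3* (diamond) and of the 23 measured genes starting within 1000 kb (circles, purple where called), by distance of their start from that of *Cavin3* in kb, for MKα3+ against MKα3− cells in vehicle (left) and LN332 against vehicle in MKα3+ cells (right). *Cavin3* lies at 5.70 and 0.84, above all of the neighbours shown, whose highest values are 1.45 and 0.59.

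*Cavin4*, the muscle cavin, was measured at 0.931 to 1.73 CPM on the average of each group and *Cav3*, the muscle caveolin, was not analysed here. *Cavin4* was called higher in MKα3+ than in MKα3− cells with LN332 (log2 fold change 0.96, SE 0.36, limma-voom adjusted p = 0.0469) on 10 to 54 counts per library. The call was lost with the replicate block (limma-voom adjusted p = 0.0549), in edgeR's quasi-likelihood test (adjusted p = 0.0684) and when any of 11 libraries was left out. In vehicle its log2 fold change was 0.35 (SE 0.33), and the LN332 responses of the lines differed by 0.61 (SE 0.48, limma-voom adjusted p = 0.9999).

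Of 28 accessory genes of caveolae (neck and coat proteins, kinases, raft scaffolds and ligand partners), 26 were measured. In vehicle, 4 were called higher and 2 lower in MKα3+ cells, which is 23.1% of them beside 18.5% of all genes, with a median log2 fold change of 0.10 against 0.01 over all genes. With LN332, 4 were called higher and 3 lower (26.9% beside 20.6%), with a median of 0.08 against 0.01. For LN332 against vehicle, 0 were called in MKα3+ and 0 in MKα3− cells. The counts at an unadjusted p under 0.05 in limma-voom were 5 and 2 of the 26, beside 1388 and 2023 of all 14474 genes. Across the alternative settings the number called was 5 to 8 in vehicle and 6 to 9 with LN332.

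Among the accessory genes higher in MKα3+ cells, *Ror1*, which encodes a receptor scaffold that binds caveolin-1 and cavin-1, stood at 0.592 ± 0.299 CPM without and 3.25 ± 1.08 CPM with α3 in vehicle (SD, n = 4). Its log2 fold change was 2.52 (SE 0.45, limma-voom adjusted p = 0.000437). With LN332 its log2 fold change was 2.61 (limma-voom adjusted p = 0.000209). *Fyn*, a Src-family kinase that acylation brings to rafts, stood at 12.8 ± 3.44 and 21.7 ± 2.23 CPM in vehicle (SD, n = 4), with log2 fold changes of 0.78 in vehicle and 0.73 with LN332. *Filip1l*, a filamin A-interacting protein gene, rose by 0.65 and 0.90, and *Prkca*, which encodes protein kinase C alpha, by 0.58 and 0.57. For *Filip1l* the LN332 log2 fold change in MKα3+ cells was 0.49 (SE 0.12, limma-voom unadjusted p = 0.0007 and adjusted p = 0.112).

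Lower in MKα3+ cells were *Stom*, the raft protein stomatin, at 114 ± 19.9 and 59.5 ± 1.67 CPM in vehicle (SD, n = 4), with log2 fold changes of −0.92 in vehicle and −1.21 with LN332. *Nos3*, endothelial nitric oxide synthase, which caveolin-1 binds, gave −1.04 and −1.07. Its exons overlap *Atg9b* and *Gm15587* on the opposite strand, so its value is uncertain. *Nosip*, a binding partner of that synthase, was called with LN332 (−0.60, limma-voom adjusted p = 0.00367) and stood at −0.49 in vehicle, just under the minimum fold. The neck and membrane-bending genes *Ehd1*, *Ehd2*, *Ehd4*, *Dnm2* and *Pacsin2* were called in none of these comparisons. Nor were the flotillins *Flot1* and *Flot2*, or *Prkcd*, which encodes the kinase that cavin-3 binds. Of these, *Ehd1* and *Pacsin2* passed the adjusted p but not the minimum fold. *Ehd1* stood at 0.34 in vehicle and with LN332 (limma-voom adjusted p = 0.031 and 0.029). *Pacsin2* stood at 0.33 with LN332 (limma-voom adjusted p = 0.0281). The *Prkcd* log2 fold change was −0.14 (SE 0.19) in vehicle and −0.05 (SE 0.19) with LN332.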

How the data were processed

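Per the labels and the study's methods, poly(A)-selected RNA of 16 libraries was sequenced, and the authors mapped reads to mm10 with Rsubread, counted them per Entrez gene with featureCounts and deposited raw counts, without normalization, of 14474 genes. The submitters' processing notes also name bcl2fastq 2.20, edgeR and limma. Whether counting used strand is not given in the sources used here. Library totals ran from 21735708 to 29338370. No 2 replicates agreed within sampling noise (smallest chi-square per degree of freedom 5.51).

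TMM factors (edgeR 4.0.16) and group contrasts were computed with limma-voom (limma 3.58.1, R 4.3.3) in a single fit of 16 libraries with a coefficient for each group. P-values were adjusted by Benjamini-Hochberg over all genes, and calls needed a log2 fold change over 0.5 in absolute value at an adjusted p under 0.05. Filtering as in the methods, on over 0.5 CPM in at least 3 libraries, removed 0 genes. Positions came from RefSeq on GRCm38 (97.2% of genes matched) and exon lengths from GENCODE M21 (91.2%). The procedure was tested on simulated data.

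The members and lists were chosen with earlier results of these data known. The genes named are the members, the accessory genes called (up to 4 in each direction of a comparison), the 3 genes most like each member, the 3 nearest on each side, and *Cav3* and *Cavin4*. Some accessory genes that were not called are named as well. The type I and type II alveolar lists and the ratios to *Cav1* were added after values were seen.

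Replicate numbers come from the sample labels. Deviations from the group means correlated for same-numbered libraries (mean r 0.255, against −0.08 for other pairs), over 0.1 in 18 of 24 pairs. In the LN332 comparison of MKα3+ cells all 4 pairs passed 0.1, so the numbers pair the libraries there. With the replicate block the share of all genes called in that comparison was 1.51% in place of 0.187%, and 0 of the 4 tested members were called in either fit.

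Alternatives were limma-voom scaled by library size alone or by DESeq2's size factors, edgeR's quasi-likelihood test, DESeq2 1.42.0, no low-count filter, a minimum of 10 counts in every library, the replicate block, sample quality weights, the groups compared alone, and each library left out in turn.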

Additional observations from a re-analysis of the deposited data

Results flagged for a closer look

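In vehicle-treated MKα3+ cells, replicate 2 lay apart from the other 3 libraries for *Cavin3*, at 73.2 CPM against 100.1 to 102.8 CPM. In LN332-treated MKα3+ cells, replicate 2 lay apart for *Fyn*, at 30.9 CPM against 23.4 to 24.2 CPM. In each case the gap to the nearest library exceeded Dixon's 95% limit for 4 values. The members, *Cavin4* and the called accessory genes gave 52 groups to examine, of which chance would set about 1 in 20 apart (2.6), so 2 is no more than chance gives. What sets replicate 2 apart was not tested.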

How the results depend on the processing

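Of the 225 counts of called members or accessory genes recomputed under 25 alternatives, 224 stayed within 1.5 times the reported count. The exception was LN332 in MKα3− cells, where the number of called members ranged from 0 to 1 as each library was left out, with 1 (*Cav1*, log2 fold change 0.69) without LN332-treated MKα3− replicate 1. This agreement was partly fixed in advance. Most of the reported counts were 0, and the fit without a low-count filter repeats the reported one, since the filter removed 0 genes. For the difference of the LN332 responses, 0 of all genes were called under every setting. The fit of the groups compared alone took that difference from the reported fit. Small log2 fold changes turned sign. With library size alone, the median of all genes in the LN332 comparison of MKα3+ cells was −0.085 in place of −0.007. That comparison then gave −0.02 for *Cav2*, −0.07 for *Cavin1* and −0.07 for *Cavin2*. Sample quality weights gave 0.01 for *Cav1* between the lines in LN332, 0.04 for *Cav2* between the lines in vehicle and −0.04 for *Cavin4* with LN332 in MKα3+ cells. As each library was left out, values crossed 0 for the lines in LN332 (*Cav1* −0.26 to 0.09, *Cavin1* −0.08 to 0.13), the lines in vehicle (*Cav2* −0.11 to 0.07), LN332 in MKα3+ cells (*Cav2* −0.01 to 0.12, *Cavin1* −0.04 to 0.08, *Cavin2* −0.29 to 0.26, *Cavin4* −0.06 to 0.28), LN332 in MKα3− cells (*Cavin2* −0.04 to 0.47), the difference of the LN332 responses (*Cavin2* −0.53 to 0.05) and the *Cav2* to *Cav1* ratio between the lines in LN332 (−0.25 to 0.04). The cause was not tested. With the replicate block, the limma-voom adjusted p was 0.0269 for *Cav1* with LN332 in MKα3− cells and 0.0244 for *Cavin1* between the lines in vehicle, at log2 fold changes of 0.47 and 0.23 that stayed under 0.5. Among the members and *Cavin4*, the block changed only the *Cavin4* call given above. Of all genes, the block called 218 in place of 27 with LN332 in MKα3+ cells and 259 in place of 44 in MKα3− cells. Over all 25 alternatives the *Cavin3* log2 fold change was 5.46 to 5.83 between the lines in vehicle, 5.95 to 6.37 in LN332 and 0.72 to 0.94 with LN332 in MKα3+ cells. It was 0.11 to 0.59 with LN332 in MKα3− cells and 0.25 to 0.69 for the difference of the responses, both reported as 0.42. Its counts of 32 to 92 in MKα3− libraries limit the precision of its LN332 response there.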
